A study of Homo sapiens with 12 samples.

Results

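The clustered protocadherins are a family of cell-surface adhesion proteins whose genes stand in 3 neighbouring clusters, alpha, beta and gamma, on human chromosome 5. They were chosen here by gene name alone, as every gene named PCDHA, PCDHB, PCDHGA or PCDHGB with a number, the C-type genes PCDHAC1 and PCDHAC2, and PCDHGC3, PCDHGC4 and PCDHGC5. This gave 54 of the 60660 gene identifiers in the files: 16 in the alpha cluster, which includes the pseudogene PCDHA14, 16 in the beta cluster and 22 in the gamma cluster. In the deposited GRCh38/hg38 coordinates they lay between chr5:140786136 and chr5:141512981, all on the plus strand.

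RNA was sequenced from Kelly cells, an established human neuroblastoma line with an amplified MYCN gene and an adrenergic, neuron-like identity. Each of 3 derivatives carried a short hairpin RNA (shRNA) that doxycycline switches on: against RCOR1 (the shRCOR1 line), against RCOR2 (the shRCOR2 line) or non-targeting (the shCTRL line). RCOR1 and RCOR2 encode the related scaffolds RCoR1 and RCoR2, which hold KDM1A, a histone demethylase, together with histone deacetylases. Cells were left untreated or received 2 µg/mL doxycycline (induced), in 2 libraries for each of the 6 groups and 12 in all. Sample titles give 72 h of treatment and the treatment protocol gives 24 or 48 h, so its length is uncertain. The labels name 1 hairpin and 1 line for each target, and they do not say whether a line is a clone. Nor do they tell whether replicates were cultured separately, and p-values here speak only for the variation among these samples, which may be technical.

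Each alpha and gamma gene joins its own large first exon, which encodes the extracellular and transmembrane parts, to constant exons shared by its cluster, whereas a beta gene is a single exon. Neurons switch on a few of the alternative promoters and so carry different combinations of these proteins, which bind the same isoform on a neighbouring cell. Promoter choice is known to involve the DNA-binding protein CTCF, cohesin and DNA methylation, and the C-type genes differ from the others in being expressed more uniformly across neurons. In neuroblastoma, methylation of the beta cluster is a known marker of a methylator phenotype.

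Most of these promoters are known to share a conserved element around the letters CGCT, so short promoter windows that hold such a word are shown for members the results below describe. They include PCDHGB4, a low-level member near PCDHGB5. More abundant members without the word of their cluster, such as PCDHAC2, PCDHGA6 and PCDHGB2, are not shown. RefSeq promoters (GRCh38.p14, 250 bases before to 50 after each start) were matched by symbol for 47 of the 54 members. PCDHA3, PCDHA13, PCDHA14, PCDHB6, PCDHB11, PCDHGA12 and PCDHGC5 had no entry. Each line below gives 30 bases, 5′ to 3′ on the plus strand. Capitals mark TGTCGCT in the alpha genes, GGTGGCGCT in the beta genes and GCCGCTGT in the gamma genes; all 3 words contain CGCT.
PCDHA2 (chr5:140794785-140794814): gccacatgaTGTCGCTgtccaccatagagt
PCDHA7 (chr5:140834176-140834205): gccacatgaTGTCGCTctttaccgcaaatt
PCDHB2 (chr5:141094548-141094577): gacgcggGGTGGCGCTgcagccttagaagt
PCDHB5 (chr5:141135183-141135212): gacgcctGGTGGCGCTgcaggctaagagtg
PCDHB10 (chr5:141192303-141192332): gccacacGGTGGCGCTgcaggctaaagaga
PCDHB15 (chr5:141245318-141245347): aacgcatGGTGGCGCTgcaggctaaggctt
PCDHGB4 (chr5:141387621-141387650): gactctgggcGCCGCTGTtggccaaagtgg
PCDHGB5 (chr5:141397867-141397896): gactctgggcGCCGCTGTtggccaaagtgc
PCDHGC3 (chr5:141475884-141475913): gactctgtgtGCCGCTGTcggccaatgaag

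Searched on both strands, GGTGGCGCT was present in 13 of 14 beta promoters, all but PCDHB1, in 0 of 13 alpha and 0 of 20 gamma promoters, and in 0.501% of all 35116 promoters in the table. TGTCGCT was present in 10 of 13 alpha, 1 of 14 beta and 3 of 20 gamma promoters, against 1.76% of all promoters. GCCGCTGT was present in 11 of 20 gamma promoters, including PCDHGB5, PCDHGB4, PCDHGC3 and PCDHGC4, in 0 alpha and 0 beta promoters, and in 1.63% of all. The core CGCT alone was found in 12 of 13 alpha, 14 of 14 beta and 20 of 20 gamma promoters, and in 70% of all promoters. These words were picked from the same promoters, so the counts describe them, and a match is not evidence of a bound site.

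Expression was given as TPM, a length-normalised share of the RNA in a library. As a check of the labels, RCOR2 was 55.4 and 49.9 TPM in the untreated and 17.7 and 20.5 TPM in the induced shRCOR2 libraries, and it also fell in the shRCOR1 line, by 0.94 ± 0.11 on the log2 scale (SE; limma adjusted p = 0.00278). RCOR1 was 8.32 and 9.08 TPM untreated and 4.80 and 5.07 TPM induced in the shRCOR1 line. Libraries differed up to 2.18-fold in depth by the ratio of coverage to FPKM, and 14758 to 16026 genes reached 1 TPM in each. All 9 adrenergic markers used here (such as HAND2 and DBH) reached 1 TPM in every library, while 5 of 13 markers of other cell types (PTPRC, CD68, PECAM1, SOX10 and S100B) stayed below 1 TPM throughout. Summed adrenergic marker levels were 8520 to 8530 TPM untreated and 4830 to 5210 TPM induced in the shRCOR2 line, 9140 to 9230 and 5740 to 6210 TPM in the shRCOR1 line, and 7310 to 8690 and 5580 to 7980 TPM in the shCTRL line. Single markers did not all follow the sum: CHGA and MYCN were called lower and GATA3 higher in the shRCOR2 line, and ISL1, CHGA and GATA3 lower and ELAVL4 higher in the shRCOR1 line. CHGA had a mean of 2830 TPM untreated and 1434 TPM induced and MYCN of 2848 and 1156 TPM in the shRCOR2 line, and ELAVL4 of 37.2 and 99.1 TPM in the shRCOR1 line. Summed other-cell markers were 50.3 to 106 and 63.0 to 79.3 TPM, 48.6 to 79.7 and 53.5 to 129 TPM, and 62.2 to 198 and 49.1 to 192 TPM in the same order. Of these, the epithelial marker EPCAM rose in the shRCOR1 line, from 0.286 and 0.310 TPM to 3.18 and 4.13 TPM, by 1.83 ± 0.33 (limma adjusted p = 0.0120; 0.220 against the shCTRL change). KRT18, also epithelial, was 0.0628 and 0.682 TPM untreated and 1.98 and 12.3 TPM induced there and was not called (adjusted p = 0.0990). No other-cell marker was called in the shRCOR2 or shCTRL line. The part of these shifts in the protocadherin values was not tested.

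A few members carried a large part of the expression in each cluster. Averaged over the 12 libraries, only 6 of the 54 members reached 5 TPM: PCDHB5 (15.4 TPM), PCDHB2 (15.3 TPM), PCDHGB5 (15.0 TPM), PCDHGC3 (13.9 TPM), PCDHB10 (11.9 TPM) and PCDHA3 (7.35 TPM). The libraries of the first 4 of these overlapped widely, so their order does not stand out from their spread. PCDHB15 (4.54 TPM), PCDHB14 (3.69 TPM), PCDHB16 (3.38 TPM) and PCDHGA6 (2.82 TPM) came next. The median of the members' means was 0.691 TPM in the alpha, 1.66 TPM in the beta and 0.999 TPM in the gamma cluster, and 5 of 16, 12 of 16 and 11 of 22 members reached a mean of 1 TPM. PCDHB1 was listed at 0 in 11 of the 12 libraries, with a mean of 0.00031 TPM.

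**Figure D1:**
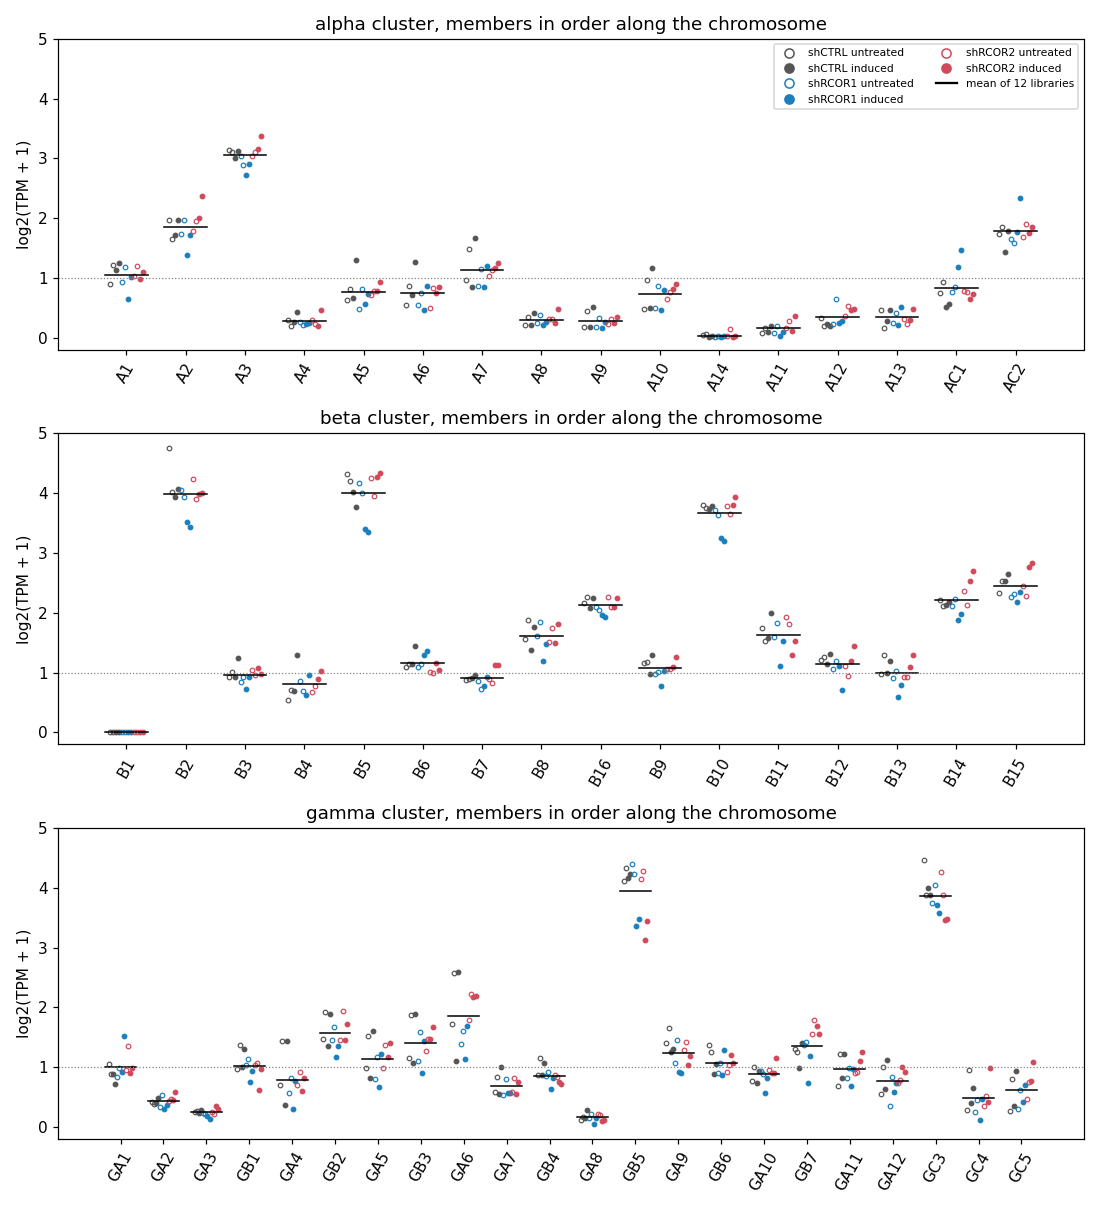
Level of each of the 54 members as log2(TPM + 1) in each of 12 libraries (circles, open for untreated and filled for induced, coloured by line), with the mean of the 12 values as a bar and members in chromosomal order. PCDHA3 stands above the rest of the alpha cluster, PCDHB2, PCDHB5 and PCDHB10 above the beta cluster, and PCDHGB5 and PCDHGC3 above the gamma cluster.

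In the alpha cluster PCDHA3 (ENSG00000255408.4, chr5:140801028-141012347) took 31.9% to 44.1% of the summed TPM of its 16 genes. PCDHB2, PCDHB5 and PCDHB10 together took 57.3% to 72.3% of the beta sum, and PCDHGB5 and PCDHGC3 together took 45.0% to 68.9% of the gamma sum. The same word did not come with the same listed level. PCDHGB4, whose promoter window holds the same word as that of the nearby PCDHGB5, had a mean of 0.824 TPM. What sets its level was not tested. Genes of the alpha and gamma clusters share exons, so reads may have been divided among them. In GENCODE v29 the median member shared 46.6% of its exon bases with other members in the alpha cluster, 43.9% in the gamma cluster and 0% in the beta cluster. For PCDHGB5 and PCDHGC3 the shares were 45.0% and 40.2%, and for PCDHGB4 the share was 64.4%, the highest in the gamma cluster. How such reads were counted was not given in the sources used here, and the levels of alpha and gamma members are uncertain to that extent.

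Of the 54 members, 36 reached 1 TPM in at least 2 libraries and were tested: 6 alpha, 15 beta and 15 gamma genes. The other 18 were 10 alpha genes, 7 gamma genes and PCDHB1, and they enter the sums below and no test. Changes are log2 differences of TPM + 1 from limma, a linear model fitted to all 16842 genes that passed the filter, and a call means a p below 0.05 after Benjamini-Hochberg adjustment over all of them. With 2 libraries in a group, groups often do not overlap even where nothing differs. A lack of overlap below thus describes the values and is no test, and its share over all genes was not computed.

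With the RCOR2 hairpin induced, PCDHGB5 was the only member called, and it was lower. Of the 36 tested members 14 had a change below 0, against 42.7% of all genes tested. PCDHGB5 (ENSG00000276547.1, chr5:141397987-141512979), a gamma B-type adhesion protein, measured 16.7 and 18.5 TPM in the untreated and 7.71 and 9.93 TPM in the induced shRCOR2 libraries. The groups did not overlap, and both induced libraries stood below every untreated library of any line. The means were 17.7 ± 1.27 and 8.82 ± 1.57 TPM (SD, n = 2), a change of -0.93 ± 0.15 (SE; limma adjusted p = 0.00566). In bulk RNA, fewer cells expressing a gene and less RNA per cell cannot be told apart. Called members were thus 1 of 36 lower (2.78%) and 0 higher, against 6.47% lower and 7.81% higher among all genes tested, so calls were no more common among the members than among all genes.

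The same gene fell with the RCOR1 hairpin. PCDHGB5 measured 20.1 and 17.8 TPM in the untreated and 9.28 and 10.1 TPM in the induced shRCOR1 libraries, again with no overlap, a change of -0.90 ± 0.15 (limma adjusted p = 0.00815). In the shCTRL line it measured 16.3 and 19.1 TPM untreated and 16.8 and 17.9 TPM induced, where the groups overlapped and the change was -0.02 ± 0.15 (limma adjusted p = 1.0). Its share of the gamma sum went from 31.2% and 32.7% to 20.1% and 22.3% in the shRCOR2 line and from 42.0% and 33.0% to 28.1% and 25.3% in the shRCOR1 line, and was 29.6% and 30.8% untreated and 36.4% and 29.8% induced in the shCTRL line.

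Tested against the shCTRL change, which both knockdown comparisons share as control, the PCDHGB5 differences were -0.91 ± 0.21 for the shRCOR2 line (limma adjusted p = 0.0616) and -0.88 ± 0.21 for the shRCOR1 line (adjusted p = 0.0897), and neither passed the threshold. With the replicate number as a block they passed, at limma adjusted p = 0.0114 and 0.0159. The shRCOR2 and shRCOR1 changes of PCDHGB5 differed by -0.04 ± 0.21 (limma adjusted p = 0.944). The within-line calls depended on single libraries. Over the fits that left out 1 of the 12 libraries the change ranged from -1.10 to -0.77 in the shRCOR2 line, and the call was lost without untreated replicate 2 or without induced replicate 1 of that line. In the shRCOR1 line the range was -0.98 to -0.82, and the call was lost without untreated replicate 1 or without induced replicate 1.

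**Figure D2:**
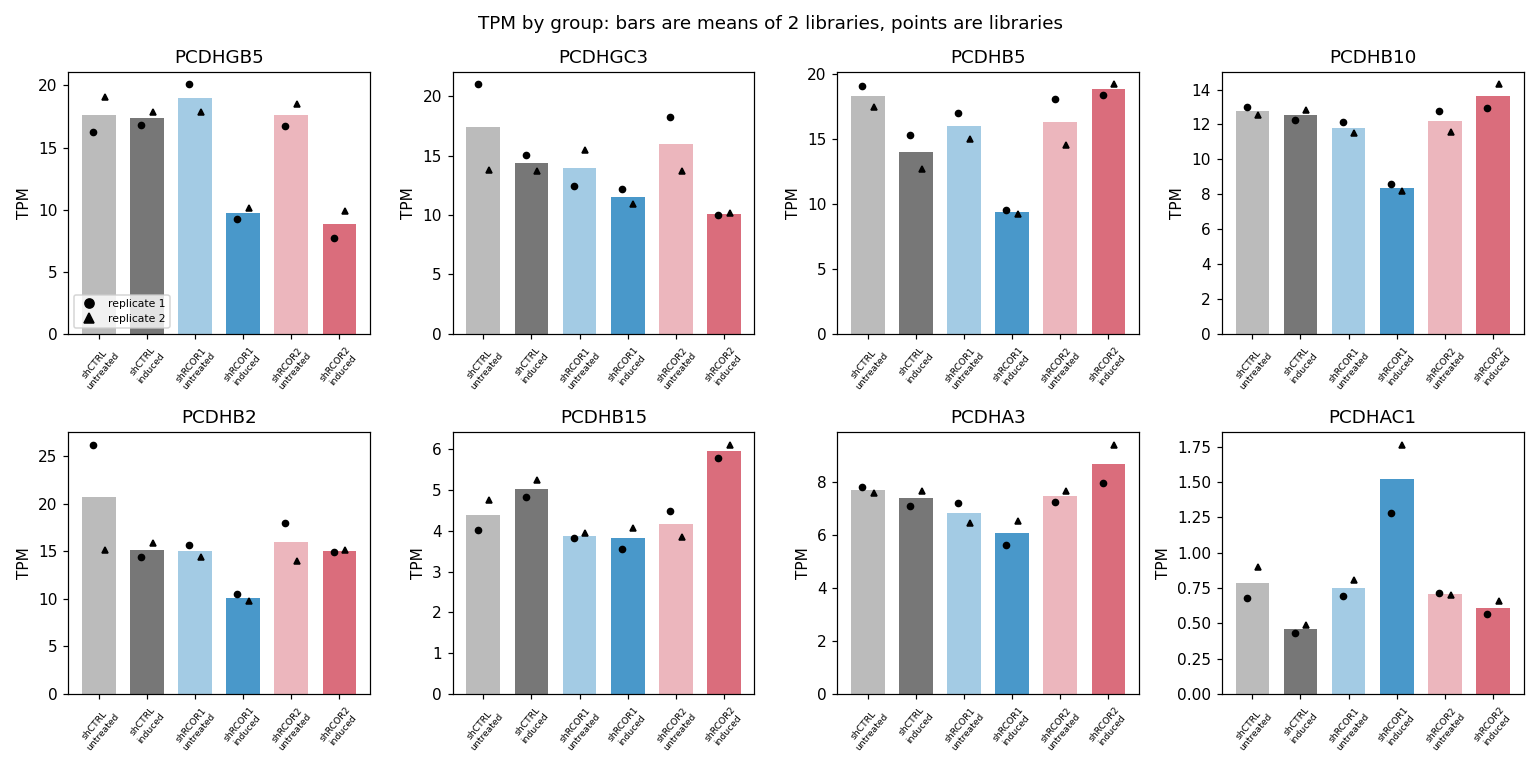
TPM of 8 members in the 6 groups (bars, mean of 2 libraries; circles, replicate 1; triangles, replicate 2; axes start at 0). PCDHGB5 is lower in the induced libraries of both knockdown lines (7.71 to 10.1 TPM) than in all untreated and shCTRL libraries, PCDHB5 and PCDHB10 are lower in induced shRCOR1 libraries, and PCDHAC1 is highest there.

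The other main gamma gene, PCDHGC3 (ENSG00000240184.7, chr5:141475947-141512977), a C-type member, measured 18.3 and 13.7 TPM untreated and 10.0 and 10.1 TPM induced in the shRCOR2 line. The groups did not overlap, and the change of -0.60 ± 0.21 was not called (limma adjusted p = 0.0906) except with the replicate block (adjusted p = 0.0311). In the shRCOR1 line it measured 12.4 and 15.5 TPM untreated and 12.2 and 10.9 TPM induced, and in the shCTRL line 21.0 and 13.8 TPM untreated and 15.0 and 13.7 TPM induced. These changes, -0.25 ± 0.21 and -0.23 ± 0.21, were not called (limma adjusted p = 0.544 and 0.976).

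The remaining gamma genes were sparser, and none of the 13 tested was called in any line. PCDHGA6 spread widely within groups: in shCTRL it was 2.29 and 4.98 TPM untreated and 1.14 and 5.04 TPM induced, replicate 2 being the higher in both. PCDHGB2 stayed between 1.25 and 2.86 TPM over all 12 libraries. The C-type genes PCDHGC4 (0.0859 to 0.973 TPM) and PCDHGC5 (0.202 to 1.13 TPM) did not pass the filter. Without PCDHGB5 and PCDHGC3 the gamma sum was 21.6 ± 4.11 TPM untreated and 22.6 ± 2.69 TPM induced in the shRCOR2 line and 18.1 ± 3.85 and 15.3 ± 5.30 TPM in the shRCOR1 line (SD, n = 2). Because replicate 2 was the higher in every group, this SD holds the gap between the replicate numbers. Within same-numbered pairs the reduced sum went from 15.35 to 11.56 and from 20.79 to 19.06 TPM in the shRCOR1 line, from 18.66 to 20.69 and from 24.46 to 24.49 TPM in the shRCOR2 line, and from 17.77 to 14.41 and from 28.97 to 28.36 TPM in the shCTRL line. It was thus lower on induction in both pairs of the shRCOR1 and of the shCTRL line, with no test. With them it was 55.2 ± 2.14 and 41.5 ± 4.34 TPM in the shRCOR2 line, 51.0 ± 4.44 and 36.6 ± 5.00 TPM in the shRCOR1 line, and 58.4 ± 4.79 and 53.1 ± 9.64 TPM in the shCTRL line.

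In the beta cluster the calls were those of PCDHB5 and PCDHB10, and they depended on single libraries. All but the PCDHB5 call in the shRCOR1 line also depended on the scaling. With the RCOR1 hairpin PCDHB5 and PCDHB10 fell, and with the RCOR2 hairpin their induced levels were not below the untreated ones. PCDHB5 (ENSG00000113209.9, chr5:141135206-141138615) measured 17.0 and 15.0 TPM untreated and 9.55 and 9.18 TPM induced in the shRCOR1 line. The groups did not overlap, and the change was -0.71 ± 0.14 (limma adjusted p = 0.0181). PCDHB10 (ENSG00000120324.9, chr5:141192353-141195647) measured 12.1 and 11.5 TPM untreated and 8.56 and 8.21 TPM induced there, also without overlap, a change of -0.45 ± 0.11 (adjusted p = 0.0401). Together with PCDHGB5 this made 3 of 36 tested members lower in the shRCOR1 line (8.33%) and 0 higher, against 3.64% lower and 4.98% higher among all genes tested.

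In the shRCOR2 line PCDHB5 measured 18.0 and 14.5 TPM untreated and 18.4 and 19.2 TPM induced; its change, 0.20 ± 0.14, was not called (limma adjusted p = 0.388). PCDHB10 measured 12.8 and 11.6 TPM untreated and 12.9 and 14.3 TPM induced; its change was 0.15 ± 0.11 (adjusted p = 0.414). Induced libraries were thus the higher ones for both genes in this line, by small margins. The shRCOR2 change exceeded the shRCOR1 change by 0.91 ± 0.20 for PCDHB5 (limma adjusted p = 0.0228) and by 0.60 ± 0.16 for PCDHB10 (adjusted p = 0.0422). These were the 2 of 36 tested members called higher in that comparison (5.56%), with 0 lower, against 5.20% higher and 5.97% lower among all genes tested, so the share called was near the background. Over the fits that left out 1 of the 12 libraries, PCDHB5 kept this call in 5 and PCDHB10 in 2. Both calls were lost under median-of-ratios scaling (limma adjusted p = 0.0846 and 0.105).

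The control line limits these results. PCDHB5 was 19.1 and 17.5 TPM in untreated and 15.3 and 12.7 TPM in induced shCTRL libraries, a change of -0.37 ± 0.14 that was not called (limma adjusted p = 0.871). Its groups did not overlap there either, and the shRCOR1 change differed from the shCTRL change by -0.34 ± 0.20 (adjusted p = 0.526). PCDHB10 was 13.0 and 12.5 TPM untreated and 12.3 and 12.8 TPM induced in shCTRL, and its difference from the shCTRL change was -0.43 ± 0.16 (adjusted p = 0.256). The PCDHB5 call was lost without any 1 of the 4 shRCOR1 libraries, and the PCDHB10 call held in only 2 of the 12 fits that left out a library and was lost under median-of-ratios scaling (adjusted p = 0.0600).

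PCDHB2 (ENSG00000112852.7, chr5:141094606-141098703), the third abundant beta gene, measured 15.6 and 14.4 TPM untreated and 10.4 and 9.77 TPM induced in the shRCOR1 line without overlap, a change of -0.53 ± 0.22 that was not called (limma adjusted p = 0.193). Its spread was set largely by untreated shCTRL replicate 1, at 26.2 TPM against 9.77 to 17.9 TPM in the other 11 libraries. PCDHB15 (ENSG00000113248.6, chr5:141245395-141249365) was 4.48 and 3.85 TPM untreated and 5.77 and 6.11 TPM induced in the shRCOR2 line, without overlap. That change, 0.43 ± 0.14, was not called (limma adjusted p = 0.0754) except with the replicate block (0.0239) and with FPKM in place of TPM (0.0313). In the shRCOR1 line PCDHB15 was 3.82 and 3.95 TPM untreated and 3.56 and 4.07 TPM induced, where the groups overlapped.

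Over all 15 tested beta genes the median change was -0.21 in the shRCOR1 line, with 12 below 0, and 0.15 in the shRCOR2 line, with 3 below 0. The corresponding medians of all genes tested were 0.04 and 0.07. The summed TPM of the beta cluster was 64.6 ± 1.57 untreated and 46.6 ± 1.03 induced in the shRCOR1 line, 67.1 ± 7.62 and 74.2 ± 4.23 in the shRCOR2 line, and 75.0 ± 7.89 and 66.3 ± 3.76 in the shCTRL line (SD, n = 2). Without PCDHB2, PCDHB5 and PCDHB10 the sums were 21.8 ± 1.16 and 18.8 ± 2.03, 22.7 ± 1.47 and 26.8 ± 2.53, and 23.3 ± 1.39 and 24.7 ± 4.16 TPM.

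**Figure D3:**
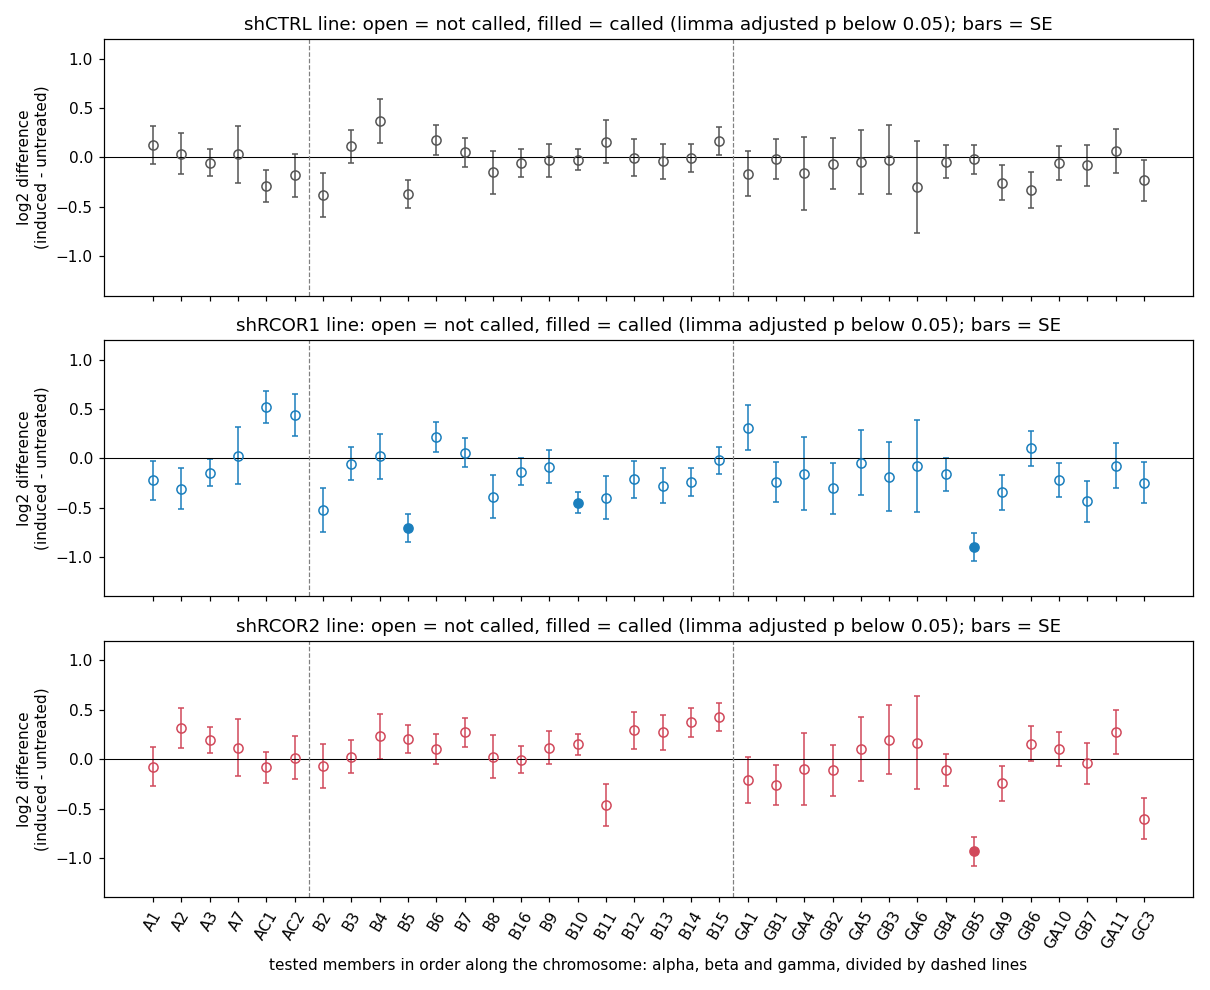
Log2 difference between induced and untreated libraries (points, with SE as bars) for the 36 tested members in each line, in chromosomal order, with filled points for called members. PCDHGB5 is called in both knockdown lines, PCDHB5 and PCDHB10 in the shRCOR1 line, and no member in the shCTRL line.

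No alpha member was called in any line. PCDHA3 measured 7.26 and 7.65 TPM untreated and 7.96 and 9.41 TPM induced in the shRCOR2 line, 7.18 and 6.45 and then 5.61 and 6.53 TPM in the shRCOR1 line, and 7.80 and 7.57 and then 7.08 and 7.67 TPM in the shCTRL line. Its changes were 0.19 ± 0.13, -0.15 ± 0.13 and -0.05 ± 0.13, none called (limma adjusted p = 0.389, 0.585 and 0.996). The summed TPM of the alpha cluster was 18.9 ± 1.84 and 21.8 ± 3.20 in the shRCOR2 line, 17.5 ± 1.69 and 17.4 ± 4.36 in the shRCOR1 line, and 19.1 ± 1.34 and 19.5 ± 4.92 in the shCTRL line (SD, n = 2). Replicate 2 was the higher in every group here too. Within same-numbered pairs the alpha sum went from 17.63 to 19.49 and from 20.23 to 24.02 TPM in the shRCOR2 line, higher on induction in both. It went from 16.31 to 14.34 and from 18.71 to 20.50 TPM in the shRCOR1 line and from 18.20 to 16.06 and from 20.09 to 23.01 TPM in the shCTRL line, where the pairs moved in opposite directions. The sums carry no test.

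The C-type alpha gene PCDHAC1 (ENSG00000248383.5, chr5:140926299-141012347) stood higher in the induced than in the untreated shRCOR1 libraries. It measured 0.694 and 0.808 TPM untreated and 1.28 and 1.76 TPM induced, and both induced libraries stood above the other 10 libraries of the study (0.431 to 0.899 TPM). The change of 0.52 ± 0.16 was not called (limma adjusted p = 0.0832), but passed with the replicate block (adjusted p = 0.0238). PCDHAC1 reached 1 TPM in the 2 induced shRCOR1 libraries only, and so passed the filter through them alone. Its p-values are thus not independent support for the rise. In the shRCOR2 line PCDHAC1 was 0.716 and 0.698 TPM untreated and 0.568 and 0.655 TPM induced, and in the shCTRL line 0.678 and 0.899 and then 0.431 and 0.487 TPM, lower when induced in both. Its shRCOR1 change exceeded the shCTRL change by 0.81 ± 0.23 (limma adjusted p = 0.143; 0.0355 with the block).

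PCDHAC2, the other C-type alpha gene, was 2.13 and 2.01 TPM untreated and 2.41 and 4.06 TPM induced in the shRCOR1 line, a change of 0.44 ± 0.22 (limma adjusted p = 0.263). Its groups did not overlap, and induced replicate 2 was the highest of all 12 libraries. PCDHA7 spread from 0.806 to 2.17 TPM over the 12 libraries, and PCDHA2 from 1.60 to 4.15 TPM. The deposited coverage of PCDHA2 was only 0.199 to 0.904 reads per base, and its ratio of coverage to FPKM was 0.0363 of the library median, against a cluster range up to 1.75; for PCDHAC2 it was 0.324. The TPM of PCDHA2 and PCDHAC2 are uncertain for that reason, and so are the alpha sums and the PCDHA3 share of them.

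In the shCTRL line, doxycycline with a non-targeting hairpin gave 0 called members of 36 and 0.00% called among all genes tested by limma. At an unadjusted p below 0.05 there was 1 member, PCDHB5, and 938 of all genes. The medians over the 36 members were 0.10 in the shRCOR2, -0.17 in the shRCOR1 and -0.04 in the shCTRL line, with 14, 28 and 26 members below 0. Among all genes 42.7%, 45.7% and 53.9% were below 0. Untreated knockdown lines differed from untreated shCTRL in 0 members and in 0.00% of all genes, with 0 members and 123 (shRCOR2) or 114 (shRCOR1) genes at an unadjusted p below 0.05. Against the shCTRL change, 0 of 36 members were called for either knockdown line, where 2.09% of all genes were called for the shRCOR2 and 1.28% for the shRCOR1 line. At an unadjusted p below 0.05 those comparisons held 2 and 3 of the 36 members, against 2926 and 2357 of all 16842 genes tested.

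The numbers of called members were larger with the replicate number as a block, but so were those of all genes. With the block 3 members were called in the shRCOR2 line (PCDHGB5 and PCDHGC3 lower, PCDHB15 higher), where 36.2% of all genes were called. In the shRCOR1 line 5 were called (PCDHGB5, PCDHB5, PCDHB10 and PCDHB8 lower, PCDHAC1 higher), against 27.4% of all genes, and in the shCTRL line 0, against 0.0594%. Against the shCTRL change 2 were called for the shRCOR2 line (PCDHGB5 lower, PCDHB5 higher) and 2 for the shRCOR1 line (PCDHGB5 lower, PCDHAC1 higher), where 14.7% and 10.2% of all genes were called. Between the knockdown changes 4 were called (PCDHB5, PCDHB10 and PCDHB14 higher, PCDHAC1 lower), against 30.4%. PCDHAC1 passed the filter only through the induced shRCOR1 libraries, so its calls are not independent of that choice. PCDHB8 and PCDHB14 are named here after their values were seen.

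**Figure D4:**
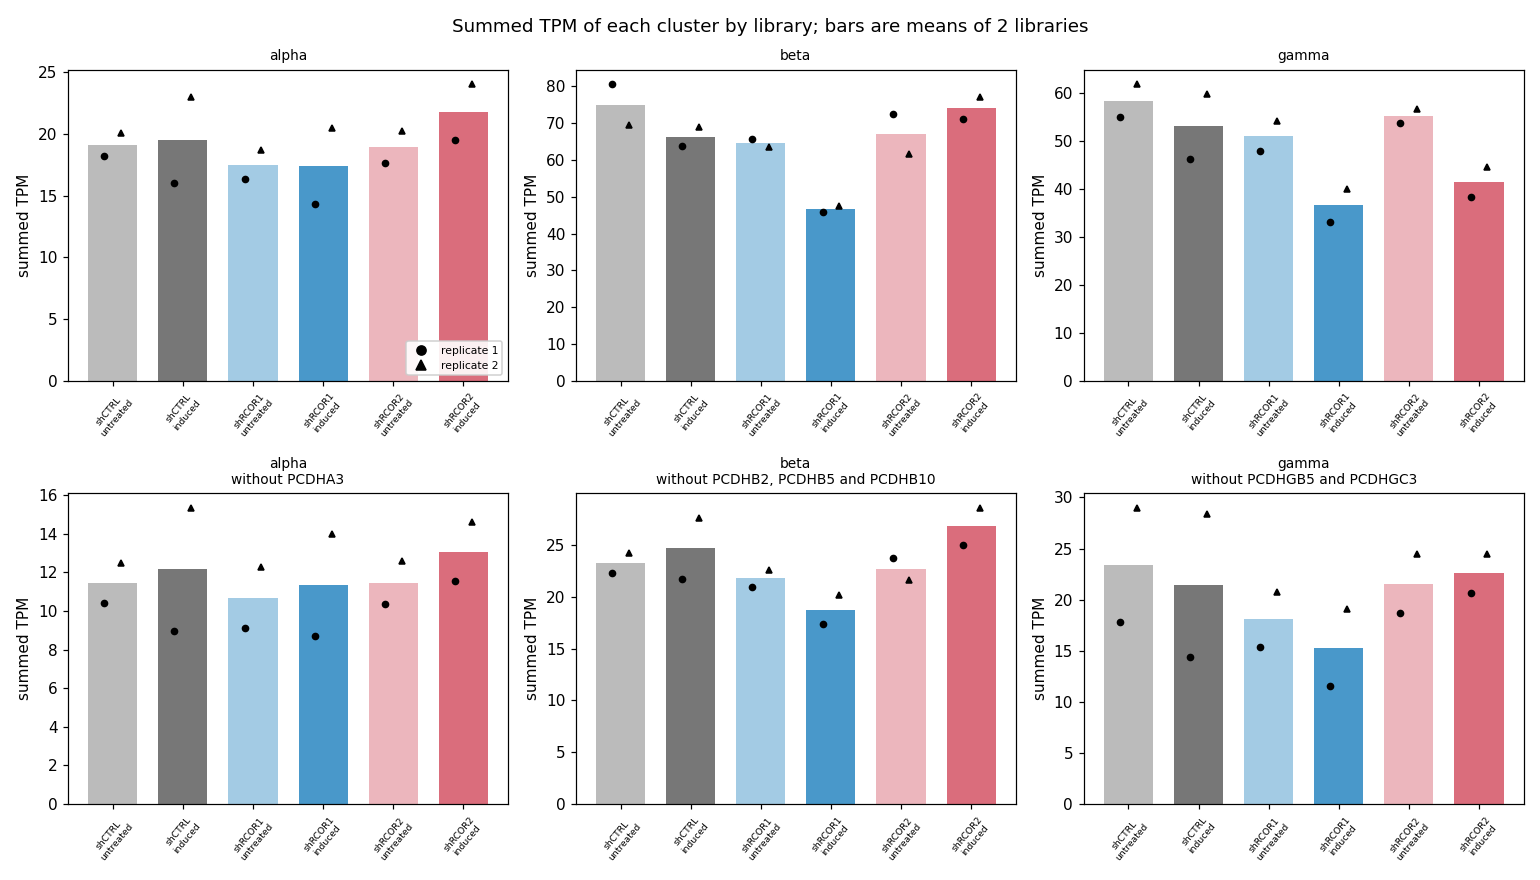
Summed TPM of each cluster by library (circles, replicate 1; triangles, replicate 2) and group mean (bars from 0), with all members in the upper row and without the most abundant members in the lower row. The beta sum is lowest in induced shRCOR1 libraries (45.9 and 47.3 TPM), and the gamma sum is lower in induced libraries of both knockdown lines. In the shCTRL line the gamma groups overlap, but induced is also lower within both same-numbered pairs (55.05 to 46.28 and 61.83 to 59.91 TPM). Without PCDHGB5 and PCDHGC3 the untreated and induced gamma sums overlap in each line, and replicate 2 is the higher in every group.

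Replicate 2 was higher than replicate 1 for many members. The alpha and the gamma sums were higher in replicate 2 in 6 of 6 groups, and the beta sum in 3 of 6. Single genes were higher in replicate 2 in at least 5 of 6 groups for 12 of 16 alpha, 5 of 16 beta and 15 of 22 gamma members. They were higher in at most 1 of 6 groups for 0, 2 and 0. These 2 beta genes were PCDHB5 and PCDHB1, and the replicates of PCDHB1 were tied at 0 TPM in most groups. Among the 16842 genes tested the corresponding shares were 46.5% and 22.0%. The member counts include members that did not pass the filter. The largest gap was that of PCDHGA6, whose replicate 2 exceeded replicate 1 by 0.60 on the log2(TPM + 1) scale on average, higher in 6 of 6 groups. The mitochondrial share of TPM, 13.3% to 21.4%, was also higher in replicate 2 in 6 of 6 groups. With the mitochondrial genes left out, an alternative chosen after seeing the data, the called members again numbered 1 in the shRCOR2, 3 in the shRCOR1 and 0 in the shCTRL line, 0 in both differences from shCTRL and 2 between the knockdown changes.

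**Figure D5:**
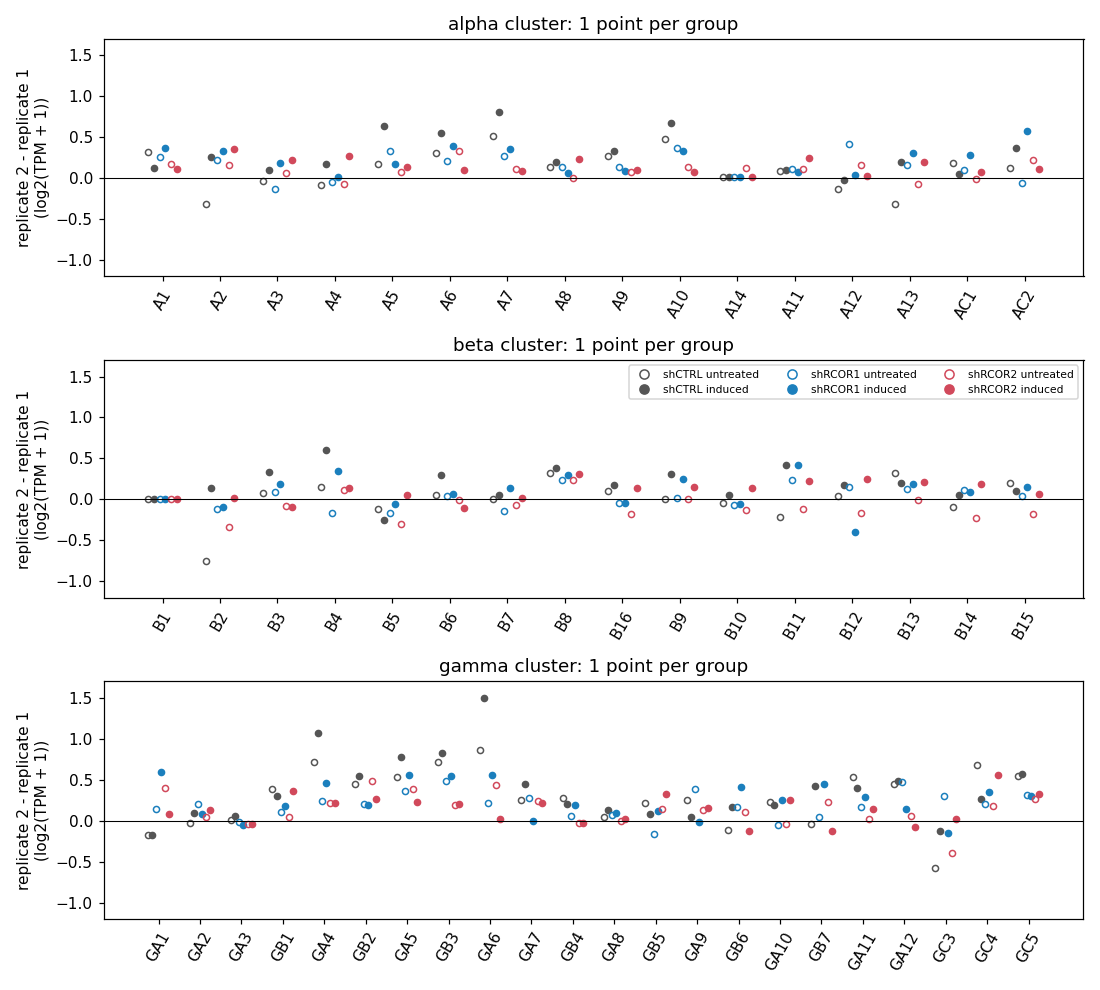
Difference between replicate 2 and replicate 1 in log2(TPM + 1) for each member, with 1 point for each of the 6 groups (open, untreated; filled, induced). Most alpha and gamma points lie above 0, while PCDHB2, PCDHB5 and PCDHGC3 have points below it.

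A list of 27 held regulators of chromatin, DNA methylation and transcription. These were CTCF, cohesin subunits and loaders, DNA methyltransferases, TET enzymes, SMCHD1, SETDB1, TRIM28, REST and the CoREST proteins. Not all are known to act on these promoters, and such action was not tested. In the shRCOR2 line 1 rose (the cohesin loader MAU2, by 0.72 ± 0.17, limma adjusted p = 0.0259) and 4 fell, including the hairpin's target RCOR2, against 7.81% higher and 6.47% lower among all genes tested. DNMT3B, a DNA methyltransferase that acts on this locus in the mouse, was 15.2 and 17.5 TPM untreated and 4.96 and 5.44 TPM induced, without overlap, a change of -1.48 ± 0.12 (adjusted p = 0.00045). The histone deacetylase HDAC2 fell by 1.16 ± 0.12 (adjusted p = 0.00128) and the cohesin subunit RAD21 by 0.45 ± 0.12 (adjusted p = 0.0345). Against the shCTRL change DNMT3B, HDAC2 and RCOR2 were called lower, while MAU2 (limma adjusted p = 0.226) and RAD21 (0.482) were not called. In the shRCOR1 line 0 rose and 2 fell, the hairpin's target RCOR1 and also RCOR2, against 4.98% higher and 3.64% lower among all genes tested. There DNMT3B (-0.13 ± 0.12, limma adjusted p = 0.592) and HDAC2 (-0.43 ± 0.12, adjusted p = 0.0699) were not called. None of the 27 was called for the shRCOR1 line against the shCTRL change, and in the shCTRL line 0 of 27 were called. CTCF itself was not called in any line (limma adjusted p = 0.658, 0.676 and 0.962). The median change of the list was -0.19 in the shRCOR2, -0.13 in the shRCOR1 and -0.11 in the shCTRL line, where that of all genes tested was 0.07, 0.04 and -0.02.

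A second list held 22 genes that act with or process protocadherins in the cell: the WAVE complex, focal adhesion kinases, FYN, MARCKS, ADAM10, gamma-secretase subunits, AXIN1 and PDCD10. In the shRCOR1 line 7 of 22 rose and 1 fell, against 4.98% higher and 3.64% lower among all genes tested, with a list median of 0.45 against 0.04. Against the shCTRL change 0 of these 7 were called, and MARCKS alone was called, lower (limma adjusted p = 0.0311). The kinase FYN rose by 0.63 ± 0.11 (limma adjusted p = 0.0107) and the scaffold AXIN1 by 0.70 ± 0.10 (adjusted p = 0.00562). MARCKS, a membrane-bound actin regulator, fell from 131 and 123 TPM to 60.6 and 52.3 TPM, by 1.16 ± 0.12 (adjusted p = 0.00128). In the shRCOR2 line 2 of 22 rose, CYFIP2 and PSENEN, and 1 fell, against 7.81% higher and 6.47% lower among all genes tested. The list median there was 0.12 against 0.07, and 0 of 22 were called against the shCTRL change. The WAVE subunit WASF3 was called in both lines in opposite directions, at 0.60 ± 0.14 in the shRCOR1 line (adjusted p = 0.0377) and -0.76 ± 0.14 in the shRCOR2 line (adjusted p = 0.0113). In the shCTRL line 0 of 22 were called.

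Protocadherins outside the clusters gave 8 tested genes of 12. PCDH7, a non-clustered protocadherin, was 10.0 and 8.84 TPM untreated and 14.2 and 15.0 TPM induced in the shRCOR2 line, a rise of 0.58 ± 0.15 (limma adjusted p = 0.0312), and 8.26 and 8.17 TPM untreated and 2.67 and 3.62 TPM induced in the shRCOR1 line, a fall of 1.16 ± 0.15 (adjusted p = 0.00302). Untreated shCTRL libraries held 10.5 and 9.23 TPM of it, induced ones 7.80 and 7.31 TPM, and that change of -0.35 ± 0.15 was not called (limma adjusted p = 0.871). The groups did not overlap in any line. Against the shCTRL change PCDH7 was not called for the shRCOR2 (adjusted p = 0.0594) or the shRCOR1 line (0.109), nor was any other of the 8, while its shRCOR2 and shRCOR1 changes differed by 1.74 ± 0.21 (limma adjusted p = 0.00281). Within the lines the other 7 tested genes were not called in either knockdown line.

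The neighbourhood of the clusters was read from the 85 other genes between the first and last member or within 500 kb of them, of which 29 were tested. Inside the locus lay 30 of them, and only TAF7, a subunit of the general transcription factor TFIID, passed the filter. TAF7 had a mean of 127 TPM and was not called in any line (limma adjusted p = 0.293 in the shRCOR2, 0.913 in the shRCOR1 and 0.996 in the shCTRL line). Among the 29, HARS2 and SRA1 rose and GNPDA1 fell in the shRCOR2 line, and HBEGF rose and DELE1 and GNPDA1 fell in the shRCOR1 line. These 2 higher and 1 lower, and 1 higher and 2 lower, of 29 stand against 7.81% and 6.47%, and 4.98% and 3.64%, of all genes tested. GNPDA1 was also lower without overlap in the shCTRL line, where untreated libraries held 108.6 and 101.3 TPM and induced ones 84.5 and 83.1 TPM; this change of -0.32 ± 0.10 was not called (limma adjusted p = 0.855). Against the shCTRL change only SRA1 in the shRCOR2 line (adjusted p = 0.0497) and HBEGF in the shRCOR1 line (0.0171) were called among the 29. The growth factor HBEGF changed by 1.18 ± 0.16 in the shRCOR1 line (limma adjusted p = 0.00396) and SRA1 by 0.86 ± 0.12 in the shRCOR2 line (adjusted p = 0.00394).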

How the data were processed

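Libraries were made from total RNA with the NEBNext Ultra II Directional kit, per the labels' protocols. Trim Galore 0.6.7, HISAT2 2.2.1 and StringTie 2.1.7 with GRCh38/hg38 were used, per the submitters' processing notes. Which annotation, strand setting and rule for multiply aligned reads applied was not given in the sources used here. The authors deposited for each library 1 table of TPM (scaled to one total per library), FPKM and coverage, the signal per base. It holds no read counts, so no counting intervals are given.

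The 54 members and all lists were chosen with earlier results of these data known. Values of log2(TPM + 1) of 16842 genes (at least 1 TPM in at least 2 libraries) over the 12 libraries entered a limma fit of 6 group means with a variance trend, limma 3.58.1 (R 4.3.3), and 8 contrasts were tested. All tests are two-sided, and the step was tested on simulated data. Cluster sums and medians carry no test. Some genes of the lists are not reported here, and the counts, sums and medians of those lists leave them out. Named members were the 4 most abundant of each cluster, every called member and the 5 C-type genes. Of other genes these were RCOR1, RCOR2 and up to 4 of each list with the smallest p. PCDHB8, PCDHB14, PCDHB16, PCDHGB4, MAU2, RAD21, CTCF, CYFIP2, PSENEN, MYCN and DELE1 were named after their values were seen. Alternatives were the replicate block, a pseudocount of 0.1, FPKM, no filter, median-of-ratios scaling and leaving out each library, and, chosen after seeing the data, leaving out 37 mitochondrial genes.

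The replicate numbers come from the sample titles. Deviations of same-numbered libraries from their group means correlated across genes in all 15 pairs of groups (0.372 to 0.750), so the numbers pair the libraries. The main fit leaves this pairing out, so its SE hold the gap between the replicate numbers. The replicate block takes the pairing in. Promoters were RefSeq's (GRCh38.p14), and exon and word sharing used GENCODE v29. Tables were handled in Python 3.11.15 (pandas 2.3.3, numpy 2.4.6), and figures were drawn with matplotlib 3.10.9.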

Additional observations from a re-analysis of the deposited data

Results flagged for a closer look

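The change of PCDHB5 on induction differed between the knockdown lines by 0.91 (log2, shRCOR2 change minus shRCOR1 change), and that of PCDHB10 by 0.60, both by limma's test of the difference itself. Both calls were lost in most fits that left out 1 library: PCDHB5 kept its call in 5 of 12 such fits and PCDHB10 in 2 of 12.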

How the results depend on the processing

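With the replicate block, which pairs same-numbered libraries, 3 members were called in the shRCOR2 line, 5 in the shRCOR1 line, 2 and 2 in the differences of these from shCTRL, and 4 between the knockdown changes. No other member's call changed with it in the 8 contrasts. With FPKM 2 were called in the shRCOR2 line. Median-of-ratios scaling moved log2 differences by up to -0.115 (shRCOR2 minus shCTRL change), gave 1 call in that comparison (PCDHGB5) and 0 between the knockdown changes, and put the beta sum of the shRCOR1 line at -0.55 (log2 induced over untreated) in place of -0.47. In the shRCOR2 minus shCTRL comparison 42.6% of all called genes were higher with the deposited scaling and 27.3% with this one. Leaving out 1 library gave 0 to 1 called members in the shRCOR2 line, 0 to 3 in the shRCOR1 line and 0 to 2 between the knockdown changes; each such fit has 1 library in a group and assumes that it varies like the others. The cause of these moves was not tested. For the 13 named members tested, 1824 of 1872 values under the alternatives stayed on their side of the threshold, 38 lost and 10 gained a call, and 90 changed sign, none of them a called value. The files give no read counts, so the precision of the sparse alpha and gamma members is limited by the 2 libraries of each group.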
